A study of Homo sapiens with 2 samples.

Results

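The genes of 10 transcription factors that govern myeloid blood cell development were examined in the CpG methylomes of 2 acute myeloid leukemia (AML) cell lines: SPI1, CEBPA, CEBPB, CEBPD, CEBPE, RUNX1, GFI1, GFI1B, IRF8 and KLF4. Members were chosen by name, 10 of 20136 protein-coding genes on the autosomes, X and Y, and each locus was taken as the annotated gene with 50 kb on either side on GRCh37 (hg19). Of 29879 CpG dinucleotides listed in these loci, 28031 had more than 5 calls in both lines, out of 24454751 such CpGs in the nuclear genome. Whole-genome bisulfite sequencing, in which unmethylated cytosines are converted and methylated ones are not, had been performed on 1 library of OCI-AML3, the DNMT3A mutant line (heterozygous), and 1 library of OCI-AML5 (AML5), the DNMT3A wild-type line. Both lines were grown in DMEM with fetal bovine serum, untreated. Each genotype is represented by a single established line, so DNMT3A status and every other difference between the lines cannot be told apart, and there was no replicate.

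Myeloid transcription factors act in a hierarchy. RUNX1 is needed for the first definitive blood stem cells, PU.1 (encoded by SPI1) and C/EBPα open the granulocyte and monocyte programs, C/EBPε and GFI1 drive granulocyte maturation, IRF8 and KLF4 drive the monocyte and dendritic cell side, and GFI1B acts in red cells and platelets. In most cells the CpG-rich starts of such genes are unmethylated and bounded by methylated DNA, and short unmethylated stretches away from the start often mark enhancers. DNMT3A is one of the enzymes that place new methyl groups on CpGs.

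To show what the differing CpGs look like in sequence, 6 stretches of 300 bases are given on the + strand of GRCh37, each from a run of differing CpGs described later for its gene. In them every CpG, in capitals, differed between the lines by Fisher's exact test, adjusted over the whole table (10 of 10 CpGs in SPI1, 12 of 12 and 15 of 15 in CEBPA, 15 of 15 in CEBPE, 36 of 36 in GFI1 and 12 of 12 in IRF8). Each stretch was the window of its run, outside untranslated sequence, with the most differing CpGs. These counts therefore follow largely from that choice. SPI1, the first CEBPA stretch and IRF8 were lower in OCI-AML3, while the second CEBPA stretch, CEBPE and GFI1 were higher.
SPI1 chr11:47397153-47397452: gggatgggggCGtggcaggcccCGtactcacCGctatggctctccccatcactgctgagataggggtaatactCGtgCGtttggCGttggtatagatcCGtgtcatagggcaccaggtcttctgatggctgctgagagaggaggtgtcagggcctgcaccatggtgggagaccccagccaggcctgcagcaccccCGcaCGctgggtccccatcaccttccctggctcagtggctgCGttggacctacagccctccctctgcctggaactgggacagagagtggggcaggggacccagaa
CEBPA chr19:33758685-33758984: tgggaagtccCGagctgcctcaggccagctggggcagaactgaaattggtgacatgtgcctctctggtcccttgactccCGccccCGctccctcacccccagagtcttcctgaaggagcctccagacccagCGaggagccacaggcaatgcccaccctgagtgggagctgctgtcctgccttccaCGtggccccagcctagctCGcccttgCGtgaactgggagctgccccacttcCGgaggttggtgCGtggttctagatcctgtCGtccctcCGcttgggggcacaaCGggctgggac
CEBPA chr19:33754276-33754575: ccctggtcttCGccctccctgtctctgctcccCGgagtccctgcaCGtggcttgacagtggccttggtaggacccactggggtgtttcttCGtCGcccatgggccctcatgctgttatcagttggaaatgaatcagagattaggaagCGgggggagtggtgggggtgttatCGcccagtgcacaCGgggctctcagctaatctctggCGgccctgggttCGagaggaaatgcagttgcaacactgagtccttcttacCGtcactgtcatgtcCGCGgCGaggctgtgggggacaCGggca
CEBPE chr14:23587887-23588186: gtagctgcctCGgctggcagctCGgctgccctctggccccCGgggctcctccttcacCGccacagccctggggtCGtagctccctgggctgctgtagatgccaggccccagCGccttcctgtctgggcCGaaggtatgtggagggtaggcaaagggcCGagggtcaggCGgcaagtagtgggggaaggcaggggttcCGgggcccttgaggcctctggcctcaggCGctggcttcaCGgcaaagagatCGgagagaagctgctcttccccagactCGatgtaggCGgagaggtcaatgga
GFI1 chr1:92945836-92946135: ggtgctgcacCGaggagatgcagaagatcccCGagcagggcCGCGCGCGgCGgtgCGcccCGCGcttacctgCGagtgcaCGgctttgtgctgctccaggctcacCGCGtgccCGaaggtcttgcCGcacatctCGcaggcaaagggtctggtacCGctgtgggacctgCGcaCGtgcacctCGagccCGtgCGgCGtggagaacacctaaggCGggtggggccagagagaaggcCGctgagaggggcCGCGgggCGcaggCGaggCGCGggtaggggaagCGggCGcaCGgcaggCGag
IRF8 chr16:85938912-85939211: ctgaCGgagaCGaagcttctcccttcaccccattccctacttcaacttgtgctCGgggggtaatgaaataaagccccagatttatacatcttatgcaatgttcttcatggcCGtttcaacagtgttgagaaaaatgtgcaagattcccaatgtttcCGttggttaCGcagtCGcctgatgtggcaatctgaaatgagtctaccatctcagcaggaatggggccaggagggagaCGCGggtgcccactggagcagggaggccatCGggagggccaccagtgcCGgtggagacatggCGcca
The SPI1 stretch holds coding exon 2 sequence and its adjoining introns, the CEBPE stretch lies inside a coding exon, the GFI1 stretch spans a coding exon and intron, the IRF8 stretch is in intron 2, and both CEBPA stretches lie downstream of the gene. The second CEBPA stretch fell outside the rule by which runs were named and was chosen after its values were seen. In the SPI1 stretch every CpG was at 0% in OCI-AML3 and between 57.1% and 100% in OCI-AML5. These 10 CpGs held only 123 calls in OCI-AML3 and 223 in OCI-AML5. That is below the median depth of both lines, so a low methylated share at a single CpG could go unseen. In the GFI1 stretch the lowest CpG of OCI-AML3 was at 69.2% and the highest at 98.4%, while OCI-AML5 spanned 0% to 29.6%. The values did not overlap in this stretch, which was picked for its differing CpGs. The genome motifs of 6 groups of blood factors were searched as short words on both strands. The C/EBP word TTGCNNAA occurred once, in the IRF8 stretch, against 14.4% of 7797 tiles of 300 bases from the 10 loci. CACCC, a core bound by KLF factors, occurred in all but the CEBPE stretch and in 47.9% of tiles. The PU.1 word GAGGAAG was in none of the 6 stretches and in 9.64% of tiles. No stretch held the RUNX word TGTGGT, found in 20.7% of tiles. The words for GFI1, which reads AAATCA, and for GATA factors, which reads AGATAA, were likewise absent here and present in 24.2% and 18.0% of tiles. The 6 stretches were picked for differing CpGs and held 53.3% to 71.7% G and C. The tiles were not matched for this, and whether any word is rarer in the stretches was not tested.

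Each table listed 28217448 CpGs with 902802339 calls in OCI-AML3 and 894828667 in OCI-AML5, a median of 27 and 30 calls per nuclear CpG. A single CpG at the median depth cannot show a methylated share under 11.1% in OCI-AML3 or 10.0% in OCI-AML5, taking 3 calls as the smallest count detected. Mean depth in the 10 loci was between 31.4 and 64.5 calls per CpG in OCI-AML3 and between 32.5 and 55.5 in OCI-AML5, the highest in both being CEBPD. A methylation level is the methylated share of calls at a CpG, and counts on both alleles and all cells are mixed in it. Region levels below are means over CpGs with more than 5 calls in both lines, differences are OCI-AML3 minus OCI-AML5 in percentage points, and intervals are 95% Newcombe intervals of the difference between pooled shares of calls. Pooled shares weight each CpG by its depth, so an interval can exclude the difference between the means printed beside it. In the CEBPD TSS window, for example, the means differed by -0.998 points and the pooled shares by -2.33. In the CEBPA run at 33.3 to 35.6 kb these were -60.2 and -68.8. The intervals cover counting error only. Several CpGs can share a read, which makes the intervals too narrow, and variation between cultures is not in them.

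In the 10 loci, lower methylation in OCI-AML3 was more common than higher, IRF8 and GFI1B held the highest shares of lower CpGs, and CEBPE was higher in OCI-AML3 at its start and GFI1 farther inside the gene. Of the 28031 CpGs tested in the loci, 2791 (9.96%) were called lower in OCI-AML3 and 748 (2.67%) higher by Fisher's exact test with Benjamini-Hochberg adjustment, against 14.7% and 3.86% of all nuclear CpGs. RUNX1, the longest locus, held 11131 of these CpGs, with 6.40% lower and 2.87% higher. It therefore pulls the pooled shares toward its own. Within 2 kb of an annotated transcription start site (TSS), 403 CpGs (11.1%) were lower and 245 (6.75%) higher of 3627, and 150 of the 245 belonged to GFI1. The locus with the highest share of lower CpGs was IRF8 with 21.3%, followed by GFI1B with 18.1%. GFI1 had 11.7% of its CpGs higher and 1.91% lower, and CEBPE was the other locus above the background for higher calls, with 4.31%. CEBPD had the lowest share of higher calls, 0.31%, and 3.96% lower calls, although it was the most deeply read.

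By whole regions, the TSS windows of 7 of the 10 genes were lower in OCI-AML3, against 88.3% of all genes, with a median difference of -2.28 points, against -4.83 over all genes. Levels were low in both lines for most members: the median was 23.02% in OCI-AML3 and 23.1% in OCI-AML5, compared with 49.4% and 56.1% over all genes. A difference of at least 20 points was seen downward in 1 member (IRF8) and upward in 2 (CEBPE and GFI1), against 6.54% and 1.04% of 19767 genes. In gene bodies outside TSS windows, 7 members had 10 or more CpGs; their median difference was -18.4 points against -4.85 over all genes, and 2 of the 7 (CEBPA and IRF8) were at least 20 points lower and 0 higher, where 7.67% and 0.51% of 17270 genes were. The 50 kb flanks were lower in OCI-AML3 for all 10 members, as for 96.5% of all genes, with differences of -2.42 to -10.7 points, and 0 passed 20 points in either direction, against 4.54% lower and 0.269% higher of 20092 genes. The plot of levels by zone gives both lines' values for each gene.

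**Figure D1:**
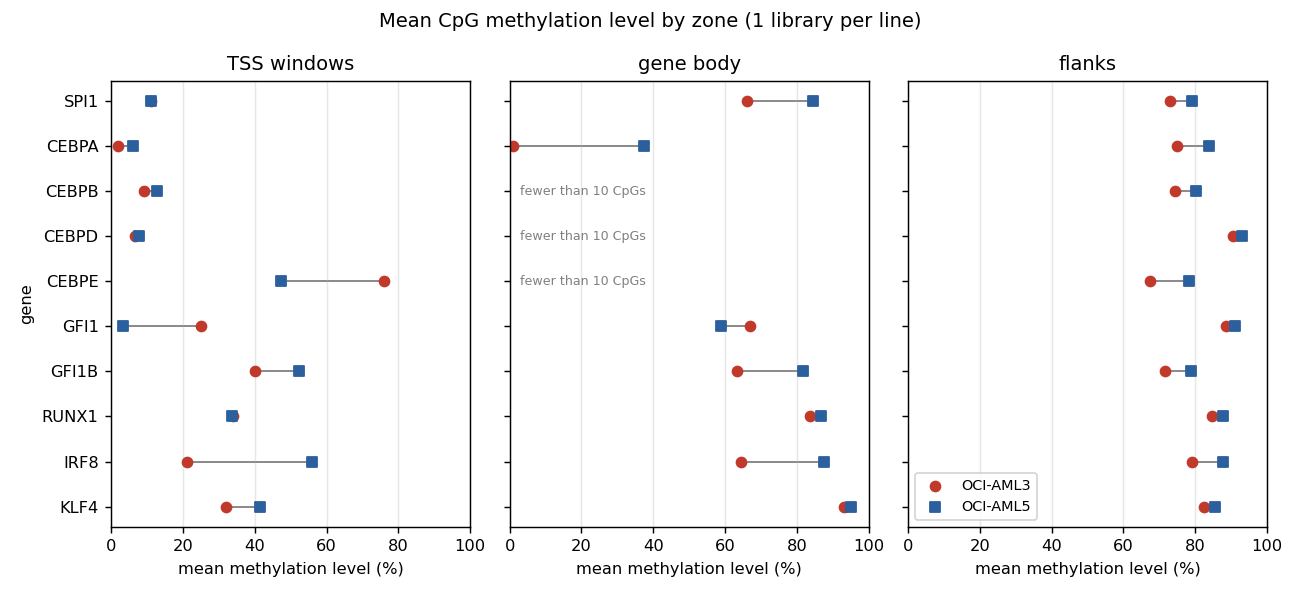
Mean CpG methylation level in percent for OCI-AML3 (red circles) and OCI-AML5 (blue squares) in the TSS windows, gene body and 50 kb flanks of each gene, 1 library per line, with a grey line joining the lines' values. CEBPE and GFI1 lie to the right in OCI-AML3 in the TSS panel (75.9% against 47.2% and 24.97% against 3.34%), IRF8 lies to the left (21.1% against 55.9%), and all genes lie slightly left in the flanks.

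SPI1 (chr11:47376411-47400098, - strand) encodes PU.1, the ETS-family factor required for macrophages and neutrophils. Its TSS windows were at 11.0% in OCI-AML3 and 11.1% in OCI-AML5 over 63 CpGs, and none of these CpGs was called. Pooled over calls instead of CpGs the difference was 3.25 points (interval 1.23 to 5.23). The gene body differed: 66.0% against 84.5%, a pooled difference of -19.0 points (interval -19.9 to -18.1), with 115 of 439 CpGs lower and 2 higher. The run with the most called CpGs lay just inside the gene. From 2.20 to 5.56 kb downstream of the TSS, across exon 2 and introns 1 and 2, 52 of 79 CpGs were lower, and the mean was 30.7% against 82.0% (interval -49.7 to -45.5). The unmethylated stretch over the promoter reached 4687 bp into the gene in OCI-AML3 and 2471 bp in OCI-AML5, while its upstream edge was at the same CpG in both lines, 232 bp before the TSS.

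Upstream of SPI1, where a distal enhancer of the gene is known, a long stretch from -17181 to -14253 bp was low in both lines, 3.66% against 6.18% over 87 CpGs. A shorter stretch of 13 CpGs beside it, from -12989 to -12293 bp, was at 2.11% in OCI-AML3 and 56.8% in OCI-AML5 (interval -59.8 to -52.0). Inside the gene, from 17010 to 17808 bp downstream, 26 CpGs were at 24.0% against 74.8%, and the neighbouring 29 CpGs from 18211 to 19088 bp were at 10.4% against 15.3%. These 4 stretches were picked after their values were seen. All 21 runs of called CpGs in the locus were lower in OCI-AML3, where 84.8% of the genome's runs were. The named runs and stretches farther out lie in neighbouring genes: 34 of 55 CpGs at -31.8 to -30.2 kb in SLC39A13 (33.1% against 66.1%), 33 of 37 CpGs at -48.8 to -48.3 kb near the start of PSMC3 (39.2% against 81.4%) and 15 CpGs in MADD at 49663 to 50121 bp (11.4% against 87.7%). They are in the 50 kb window of SPI1 and their connection to it was not tested.

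The C/EBP factors are basic leucine zipper proteins that bind the same DNA sequence, and their genes differed from each other in direction. CEBPA (chr19:33790840-33793440, - strand), the factor that commits progenitors to granulocytes, is a gene of 1 exon in a large CpG island. Its TSS window of 391 CpGs was at 1.82% in OCI-AML3 and 6.01% in OCI-AML5 (interval -5.12 to -4.36), with 34 CpGs lower and 0 higher. The unmethylated stretch over the start reached 4175 bp downstream in OCI-AML3 and 2406 bp in OCI-AML5. The 15 CpGs of the gene body beyond 2 kb were at 0.93% and 37.5% (interval -36.4 to -27.7). Here 40 of 44 CpGs from 1.99 to 3.85 kb were lower, 2.26% against 59.1%, and at the other edge, between -1.88 and -1.08 kb, 33 of 55 were lower, 7.92% against 34.5%, in exonic sequence of the divergent transcript CEBPA-DT.

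Distal to CEBPA, in the downstream flank where myeloid enhancers of the gene are known, the level was 68.3% against 80.6% over 924 CpGs (interval -12.1 to -10.9), a larger difference than in the upstream flank (86.1% against 89.6%). The largest run in that flank lies 33.3 to 35.6 kb downstream of the TSS, where 54 of 72 CpGs were lower and the mean was 8.12% against 68.4% (interval -70.6 to -66.9). Further named stretches were at 4.50% against 89.5% (13 CpGs, 19836 to 20441 bp downstream) and 16.5% against 80.1% (15 CpGs, 42677 to 43730 bp downstream). Between them, 38.8 kb downstream, the direction was the opposite: 19 of 21 CpGs from chr19:33754149-33754657 were higher in OCI-AML3, with means of 83.7% and 35.5%. The locus had 20 lower and 4 higher runs in OCI-AML3 (83.3% lower, against 84.8% of the genome's runs).

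CEBPB and CEBPD, factors induced in inflammation and in granulocyte emergency responses, had low TSS windows in both lines. CEBPB (chr20:48807367-48809205) was at 9.03% and 12.6% over 315 CpGs (interval -5.88 to -4.47), with 16 CpGs lower and 0 higher, 12 of them in one run from -0.807 to -0.422 kb (22.3% against 44.03%). Its locus of 1983 CpGs had 178 lower and 24 higher, among them a run of 23 called of 36 CpGs at -18.9 to -18.2 kb in LINC01273 (50.2% against 86.3%). CEBPD (chr8:48649475-48650726) had the smallest share of called CpGs over its locus and the smallest difference in locus mean, 74.7% against 76.9%. Its TSS window was at 6.66% and 7.66% over 307 CpGs (interval -2.84 to -1.82), and its flanks were at 90.6% and 93.1%. Of 1615 CpGs in the CEBPD locus, 64 were lower and 5 higher. All 9 runs found there were lower, where 84.8% of the genome's runs were. The largest had 10 called of 14 CpGs at -27.6 to -26.8 kb (63.3% against 93.0%).

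CEBPE (chr14:23586245-23589465), needed for the last steps of neutrophil and eosinophil granule formation, went the other way at its start. Its TSS windows were at 75.9% in OCI-AML3 and 47.2% in OCI-AML5 over 105 CpGs (interval 26.5 to 30.5), with 48 CpGs higher and 1 lower. At the most upstream TSS the levels were 66.6% and 24.7% (interval 40.4 to 45.4), with 46 of 69 CpGs higher and 0 lower. In the run from -0.287 to 1.12 kb, which covers exon 1 and part of intron 1, 38 of 42 CpGs were higher and the mean was 88.2% against 28.8%. OCI-AML5 had a low stretch of 2365 bp over the canonical TSS, and OCI-AML3 had none. The upstream flank of CEBPE, which overlaps SLC7A8, was lower in OCI-AML3 at 72.4% against 88.7% (142 CpGs lower, 4 higher), with 16 of 20 CpGs at 6.51% against 50.9% at -35.5 to -35.2 kb, near an SLC7A8 start. The same locus thus held a higher start and a lower flank.

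**Figure D2:**
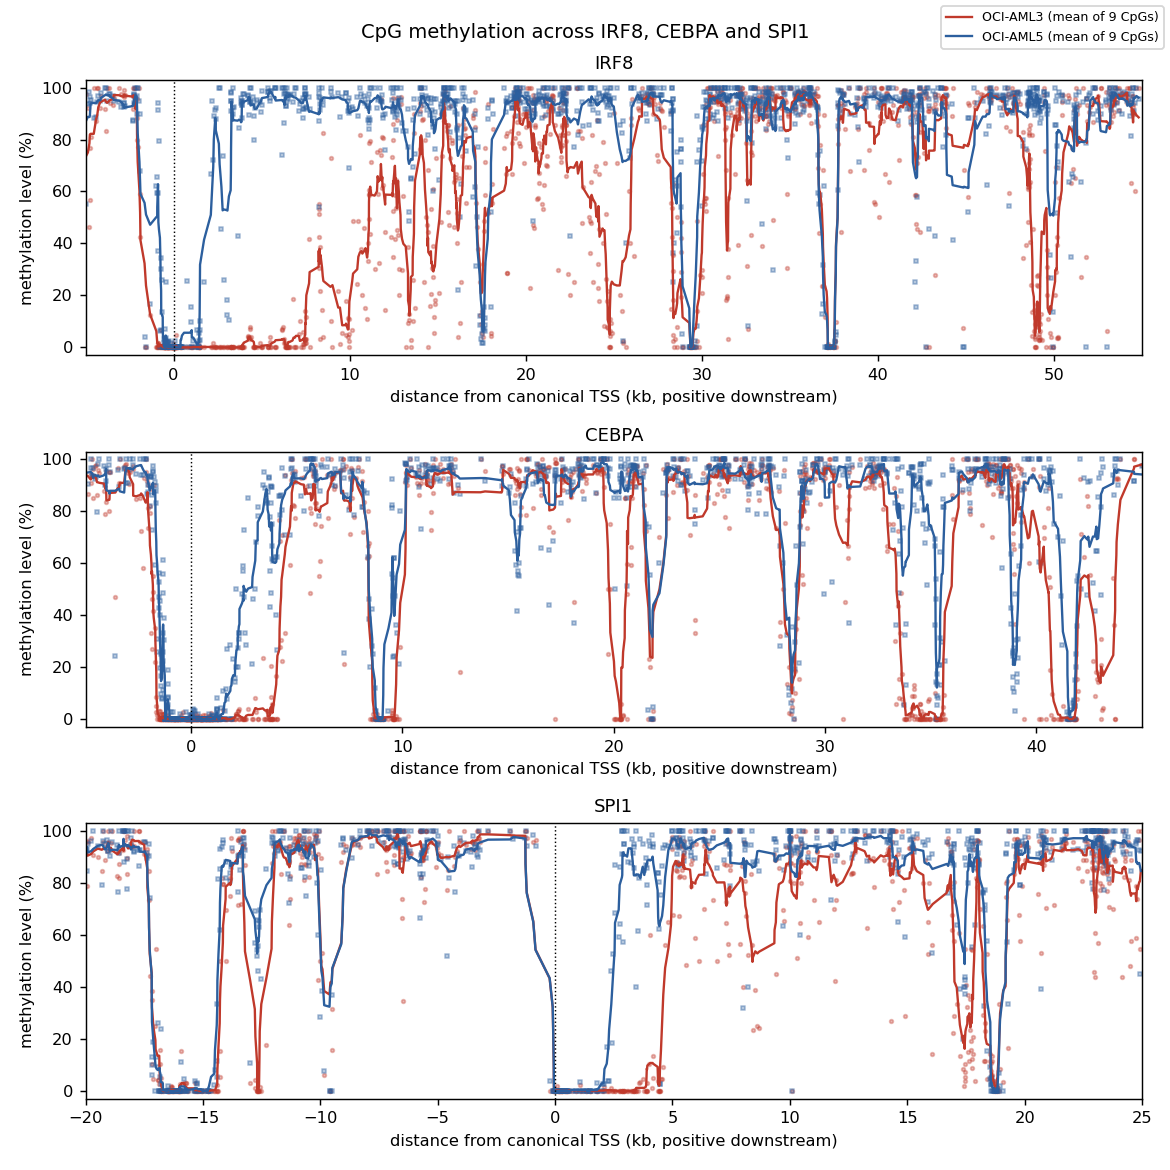
Methylation level in percent of each CpG (points) and the mean of 9 neighbouring CpGs (lines) in OCI-AML3 (red) and OCI-AML5 (blue) against distance in kb from the canonical TSS (dotted line; positive is downstream) for IRF8, CEBPA and SPI1. In all 3 genes the low stretch over the TSS (below 50%) reaches farther downstream in red than in blue, to 8243 bp against 1733 bp in IRF8.

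RUNX1 (chr21:36160098-37376965, - strand), the DNA-binding partner of CBFβ and a gene often mutated in AML, has a distal and a proximal promoter. As annotated it spans 1216868 bp because of transcripts that start far upstream; the canonical transcript covers 261502 bp. Its 9 separate TSS windows together were at 34.0% and 33.6% over 792 CpGs, with 20 CpGs lower and 34 higher; pooled over calls the difference was -6.59 points (interval -7.29 to -5.90). The canonical (distal) window was low in both lines, 3.22% against 11.7% over 61 CpGs (interval -7.28 to -4.58), with 7 lower and 0 higher. The CpG-dense proximal window was at 4.19% against 1.08% over 450 CpGs (interval 2.70 to 3.24), with 24 higher and 0 lower, and its low stretch was 9076 bp long in OCI-AML3 and 11556 bp in OCI-AML5. The remaining 7 windows were between 82.3% and 95.2% in both lines.

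At the proximal promoter of RUNX1 the higher CpGs lay in small groups at its edges, chosen here after their values were seen: 13 of 39 CpGs at chr21:36262719-36263248 (16.8% against 0.17%) and 12 of 18 at chr21:36263663-36264106 (63.9% against 25.5%). Another 7 of 7 CpGs 168660 bp downstream of the canonical TSS were higher, 92.8% against 20.7%. The 3 runs with the most called CpGs were all lower in OCI-AML3. They had 18 called of 20 CpGs at chr21:37109852-37111574, upstream of the canonical transcript (7.26% against 73.6%), 16 of 18 at 61.5 to 62.3 kb in intron 2 (21.5% against 80.6%) and 14 of 16 at 79.4 to 80.4 kb in intron 2 (12.7% against 69.5%). The body of RUNX1 as a whole was at 83.6% and 86.8% (interval -3.38 to -3.02), a mean difference of -3.22 points that was -1.06 within the canonical transcript. Of the 79 runs in the RUNX1 locus, 54 were lower (68.4%) and 25 higher, against 84.8% lower among the genome's runs. The 25 were the most of any member, in the longest locus, and GFI1 had 3 of 5 higher.

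GFI1 and GFI1B are zinc finger repressors of the same family, and their TSS windows differed in opposite directions. GFI1 (chr1:92938600-92952482, - strand), which represses monocyte genes in neutrophil precursors, had TSS windows at 24.97% in OCI-AML3 and 3.34% in OCI-AML5 over 521 CpGs (interval 23.4 to 24.5), with 150 CpGs higher and 0 lower. The start itself was unmethylated in both lines: within 2 kb of the most upstream TSS the levels were 0.39% and 0.97% over 172 CpGs. The difference lay inside the gene, where 142 of 145 CpGs from 5.15 to 7.36 kb downstream, over exons 4 and 5 and introns 3 to 5, were higher in OCI-AML3, with means of 83.3% and 9.22% (interval 74.95 to 77.04). A further 8 of 8 CpGs in intron 5 were at 88.5% and 25.3%. GFI1 was the one member whose whole locus was higher in OCI-AML3, 63.7% against 56.7%, with 159 CpGs higher and 26 lower, while its flanks were slightly lower, 88.7% against 91.1%. A named stretch upstream was lower, 6 CpGs in EVI5 at -29.6 to -28.7 kb, at 6.07% against 61.1%.

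**Figure D3:**
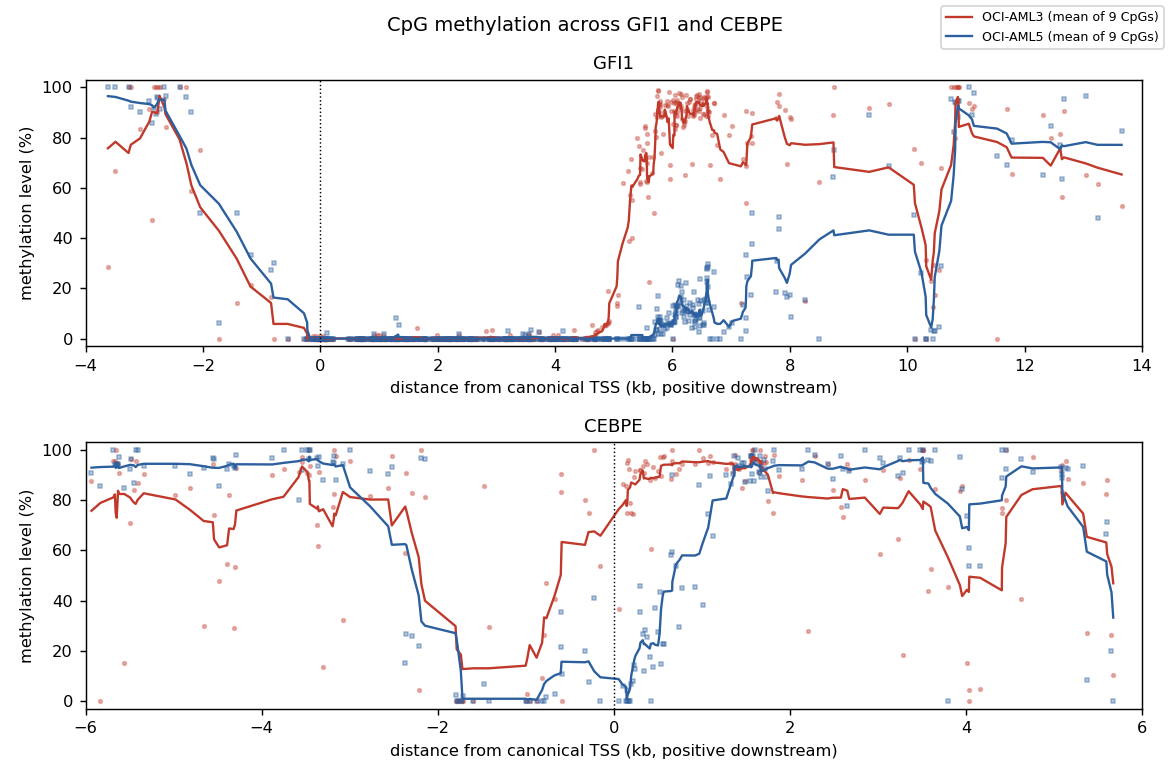
Methylation level in percent of each CpG (points) and the mean of 9 neighbouring CpGs (lines) in OCI-AML3 (red) and OCI-AML5 (blue) against distance in kb from the canonical TSS (dotted line; positive is downstream) for GFI1 and CEBPE. In GFI1 both lines lie near 0% from the TSS to about 5.15 kb, where the red line climbs above the blue; in CEBPE the red line is above the blue around the TSS.

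GFI1B (chr9:135819387-135867074), needed for red cell and platelet precursors, was lower in OCI-AML3 in its TSS windows, body and flanks. Its 4 TSS windows together were at 40.1% and 52.3% over 358 CpGs (interval -17.1 to -14.7), with 82 CpGs lower and 13 higher, and the body was at 63.3% and 81.7% over 474 CpGs (interval -18.9 to -17.0), with 144 lower and 11 higher. Window by window, going downstream, the levels were 24.5% and 29.0%, then 73.4% and 88.4%, then 32.9% and 45.2% at the canonical TSS, and 50.5% and 74.7% at the last one, 7985 bp downstream (interval -27.1 to -22.0). The run with the most called CpGs lies in intron 1 of the canonical transcript, 4.290 to 6.004 kb downstream, with 21 of 38 CpGs lower and means of 58.0% and 90.0%. Within it, 5 CpGs from 4.796 to 5.018 kb were at 25.7% against 90.1%. Lower runs outnumbered higher ones 47 to 4 (92.2% lower, against 84.8% of the genome's runs). Of the 40 low stretches in the GFI1B locus, 25 were low in OCI-AML3 alone, where 53.2% of the genome's were.

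IRF8 (chr16:85932722-85956212), the interferon regulatory factor that directs monocytes and dendritic cells, had the largest TSS window difference of the 10 genes. Its 3 TSS windows together were at 21.1% in OCI-AML3 and 55.9% in OCI-AML5 over 361 CpGs (interval -35.1 to -33.1), with 168 CpGs lower and 0 higher. The start itself was low in both, 2.10% and 8.11% at the most upstream TSS, and the 3 windows differed in size: 1.70% against 31.3% over the first window, 29.4% against 93.3% over the second, 9474 bp downstream (interval -67.9 to -64.2), and 58.9% against 89.0% over the third. All 37 CpGs from 3.24 to 5.02 kb, over exon 2 and its adjoining introns, were lower, at 0.99% against 92.6%, as were 37 of 37 from 6.15 to 7.73 kb in intron 2, at 4.17% against 95.2%. The gene body was at 64.5% and 87.5% over 204 CpGs (interval -23.0 to -20.6).

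Beyond IRF8 the downstream flank was at 77.1% and 87.9% over 959 CpGs, against 82.7% and 87.5% in the upstream flank. Here 59 of 77 CpGs from 48.3 to 50.3 kb downstream of the TSS were lower (33.0% against 87.6%), and a stretch of 34 CpGs inside that run was at 13.9% and 94.5%. Nearer to the gene, other stretches were at 16.9% and 95.8% (17 CpGs, 24401 to 24889 bp) and 24.1% and 95.1% (6 CpGs, 31379 to 31494 bp). Some stretches differed in the other direction, among them, picked after their values were seen, 14 CpGs in the gene at 17211 to 17714 bp (34.8% against 15.4%) and 4 CpGs at 44243 to 45123 bp (67.5% against 32.4%). IRF8 was among the genes that the study had selected on these same 2 lines for a lower promoter in OCI-AML3, so its direction here is not independent evidence. The study's PCR primer list also places IRF8 in its signature of promoters less methylated in DNMT3A mutant patients, samples not examined here.

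KLF4 (chr9:110247133-110252763, - strand), a Krüppel-like factor of monocyte differentiation, was lower at the edges of its CpG-dense start. Its TSS windows were at 32.1% and 41.5% over 414 CpGs (interval -15.6 to -13.5), with 75 lower and 0 higher. Between -1.49 and -0.778 kb, 27 of 31 CpGs were lower, at 12.4% against 61.7%, and 45 of 105 CpGs from 0.959 to 1.96 kb over exon 3 and intron 2 were lower, at 38.2% against 55.5%. The gene body beyond was methylated in both lines, 93.3% and 95.2% over 20 CpGs. A stretch at 23.4 to 23.7 kb in LINC01509 had 25 of 28 CpGs lower, at 21.1% against 63.0%.

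The width of the unmethylated stretch over the canonical TSS differed between the lines. A low stretch was defined as 4 or more CpGs whose running mean over 3 CpGs was below 50%. It was at least 1000 bp longer in OCI-AML3 in 4 of the 9 members that had one in both lines: IRF8 (10122 bp against 2564 bp), SPI1 (4920 and 2704 bp), CEBPA (5876 and 3910 bp) and RUNX1 (5781 and 4191 bp). GFI1 was the 1 member at least 1000 bp shorter (7197 and 10790 bp). Over 13083 genes, 12.3% were at least 1000 bp longer in OCI-AML3 and 1.44% shorter, with median lengths of 1855 and 1552 bp and a median difference of 253 bp. The other members differed by less: KLF4 by 972 bp, GFI1B by 606 bp, CEBPB by 570 bp and CEBPD by 284 bp, all longer in OCI-AML3.

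**Figure D4:**
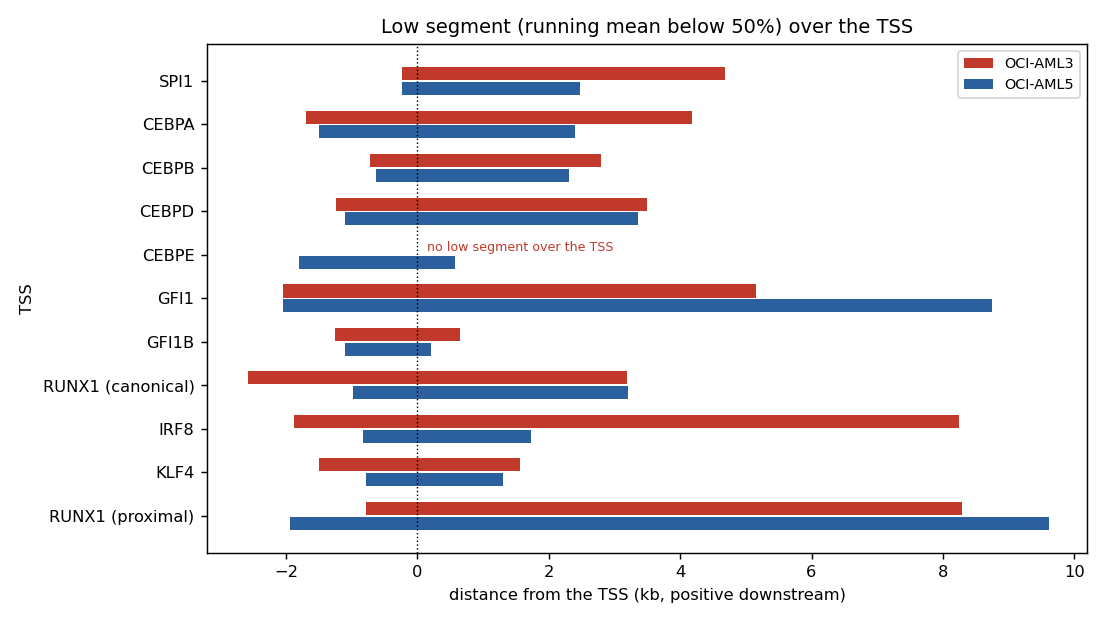
Extent of the low stretch (running mean of 3 CpGs below 50%) over the TSS of each member in OCI-AML3 (red) and OCI-AML5 (blue), in kb from the TSS with positive downstream; the proximal RUNX1 promoter is added as the last row. The red bar is the longer one in IRF8 (10122 bp against 2564 bp) and the shorter one in GFI1 and the proximal RUNX1 promoter, and CEBPE has none in OCI-AML3.

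Across the 10 loci, 276 runs of at least 3 CpGs called in the same direction were found, 232 (84.1%) lower and 44 higher in OCI-AML3, against 84.8% lower and 15.2% higher among 433218 runs of the genome. Of 185 low stretches in the loci, 83 were low in both lines, 90 in OCI-AML3 alone and 12 in OCI-AML5 alone, where 53.2% of 479844 low stretches of the genome were low in OCI-AML3 alone and 10.7% in OCI-AML5 alone. Of the 26 long ones, with 30 or more CpGs, 7 were at least 20 points lower in OCI-AML3 (26.9%) and 2 at least 20 points higher (7.69%), where 23% and 4.48% of 21506 long stretches of the genome were. The 2 higher were those that cover the starts of GFI1 and CEBPE. The GFI1 stretch reached from -2046 to 8743 bp, and the difference in it lay inside the gene and not at the start. IRF8 and CEBPA each had 3 of the 7 lower, SPI1 the other. Of 159 short stretches, 95 were lower (59.7%) and 14 higher (8.81%), against 58.9% and 9.14% of 458338. The counts of the loci were near those of the genome for runs and for short stretches. RUNX1 alone held 79 of the runs and 52 of the short stretches.

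Partner factors that act beside these 10, a list of 26 genes, had a median TSS window difference of -5.09 points, near the -4.83 over all genes, with 21 lower (80.8%, against 88.3% of all genes), 1 at least 20 points lower and 0 higher, where 6.54% and 1.04% of all genes were. The 1 was KLF2, a Krüppel-like factor of lymphocytes and monocytes, at 13.8% in OCI-AML3 and 40.1% in OCI-AML5. KLF2 too was among the genes the study selected on these lines, and its primer list also places KLF2 in the patient signature. Next were FLI1 (41.1% against 55.5%) and EGR1 (15.7% against 27.6%), an ETS factor and an early response factor. The 3 highest were TAL1 (45.4% against 34.9%), IRF4 (58.4% against 49.5%) and LYL1 (9.47% against 0.74%), TAL1 and LYL1 being related helix-loop-helix factors of blood stem cells.

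Target genes of these factors, a list of 20 myeloid granule, receptor and calcium-binding protein genes, had a median difference of -8.16 points, against -4.83 over all genes. Of these, 17 were lower in OCI-AML3 (85%, against 88.3% of all genes), 6 by at least 20 points, where 6.54% of all genes were, and 0 were higher by that much. The 3 lowest encode granule proteins of neutrophil precursors: CTSG at 2.03% against 84.3%, AZU1 at 4.48% against 72.0% and ELANE at 17.6% against 80.4%. FCER1G, PRTN3 and TYROBP were the other 3 past 20 points. CTSG, ELANE and FCER1G were also among the genes the study selected on these lines for a lower promoter in OCI-AML3, so their direction is not independent evidence. The 3 highest were LYZ (75.5% against 71.2%), FCGR1A (78.6% against 75.3%) and CD14 (46.7% against 45.9%). PRTN3, AZU1 and ELANE are neighbours on chromosome 19, so they are not separate observations.

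Markers of blood lineages gave methylation and not expression, and the label of the lines was not tested by them. Among myeloid markers, MPO was at 90.8% and 91.9%, CSF1R at 82.4% and 84.0%, ITGAM at 79.3% and 87.9%, CD33 at 62.2% and 59.0% and CD14 as above, so none was unmethylated across its TSS windows. PTPRC, shared by white blood cells, was at 76.8% and 83.5%. The lymphoid CD3E, CD3D and CD79A were between 70.9% and 91.4%. The erythroid EPOR was at 19.8% and 41.5%.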

How the data were processed

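Whole-genome bisulfite libraries of OCI-AML3 (DNMT3A mutant) and OCI-AML5 (DNMT3A wild type), 1 each, were sequenced paired-end by the authors, aligned to hg19 with Bismark on Bowtie 0.12.8, and deposited as raw counts (a methylated and an unmethylated count per CpG, both strands summed). Duplicate removal is not given in the sources used here. Mitochondrial DNA (0.169% and 0.1% methylated calls) identified the methylated column.

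Per CpG with more than 5 calls in both lines, Fisher's exact test (two-sided) was adjusted by Benjamini-Hochberg over the whole table, at 0.05. With 1 library per line it covers read sampling only. Region differences were not tested; a region was called at 20 points. Low stretches were 4 or more CpGs with a running mean over 3 CpGs below 50% and gaps up to 1000 bp; runs were 3 or more CpGs called in the same direction with gaps up to 300 bp. Gene models were GENCODE lifted to GRCh37. Every member was described. Named per gene were up to 3 runs with the most called CpGs and up to 3 low stretches outside TSS windows with the largest differences of at least 20 points, and of the partner and target lists the 3 lowest and 3 highest. Results of some marker genes are not reported here. Members and lists were chosen with earlier results of these data known. On simulated chromosome 21 counts (339471 CpGs), 184 of 200 implanted decreases of 50 points over 10 CpGs were recovered as runs, with 0 runs elsewhere. The simulated CpGs were drawn independently, only the implanted ones differed, and the adjustment covered chromosome 21 alone. The 0 therefore gives no rate of false runs for the real table. Intervals are Wilson and Newcombe 95% intervals (Python 3.11.15, numpy 2.4.6, scipy 1.17.1, pandas 2.3.3).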

Additional observations from a re-analysis of the deposited data

How the results depend on the processing

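Over 14 alternative settings, each value was counted once for each setting that applied to it. Of the summary values, 87 kept their side and size and 25 moved. Of 269 values of single genes and windows 258 kept their sign. By size, 186 of the 269 stayed the same, 74 moved and 9 reversed where the main interval excluded 0. Many single values are runs or stretches named for large differences or many called CpGs, so a change of sign was unlikely for them. Pooling calls instead of averaging CpGs gave median differences of -4.95 points for TSS windows, -17.98 for gene bodies and -8.18 for flanks, and 2 lower partners; at least 10 calls gave -18.2 for gene bodies. With 1 kb windows the TSS median was -0.0716, and flanks of 20 kb had a median of -7.05. With the most upstream TSS alone the median was -3.76, with 0 members lower, 1 higher and 4 partners lower. With the canonical TSS alone it was -3.88, with 0 lower and 1 higher. The calls of IRF8 and GFI1 therefore rest on CpGs near annotated starts farther downstream. A threshold of 10 points gave 2 lower TSS windows, 4 lower bodies, 1 lower flank, 6 lower and 1 higher partner, and 11 lower long stretches. A running mean below 30% left 49 lower short stretches, a minimum of 8 CpGs left 34 lower and 6 higher, and runs of at least 5 called CpGs numbered 122 lower and 15 higher. The 11 that changed sign were the SPI1 TSS windows (3.25, counted also as the gene's single window) and the RUNX1 TSS windows (-6.59) with pooled calls, SPI1 (0.00668), GFI1 (-0.578) and RUNX1 (-10.6) at the most upstream TSS, and SPI1 (0.00668), GFI1 (-0.578) and RUNX1 (-8.63) at the canonical TSS, and 2 other RUNX1 windows whose intervals hold 0 (-1.01 with at least 10 calls, -0.362 with pooled calls). The canonical TSS, the canonical RUNX1 extent and the variants of stretch length were chosen after seeing the data. No paired analysis was possible because each line had 1 library. The precision is limited by read depth and by the lack of a replicate culture of either line.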
